A study of Homo sapiens with 18 samples.

Results

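The comparison is of SK-N-MC cells kept in vehicle for 4 weeks (4w0 nM) with cells kept in vehicle for 1 week (1w0 nM). It rests on 6 of the 18 arrays of the study, the 3 labelled 0 nM and 4 weeks and the 3 labelled 0 nM and 1 week, taken by these labels. The members and the gene lists were chosen with earlier results of these data known. SK-N-MC is a human tumour cell line that the labels call a neuroepithelioma. In the study it was exposed to rotenone, an inhibitor of mitochondrial complex I that also destabilizes microtubules, at 5 nM or 50 nM for the same times, which gave 4 further groups of 3 arrays, here 1w5 and 1w50 nM for the week and 4w5 and 4w50 nM for the 4 weeks. The vehicle was 0.05% ethanol. All 18 arrays are of cells in the same pyruvate-free medium with glucose, glutamine and fetal serum, so both vehicle groups lacked pyruvate too. By the design text, dishes of each condition were pooled within each of 3 experiments, so an array stands for pooled dishes of 1 line. The p-values reflect only how far such pools differ, by 1 spread shared over the groups of all 18 arrays. Which array came from which experiment is not given in the labels. The signals are from Affymetrix HG-U133A arrays, as model-based expression indexes (MBEI), and genes were called by limma at an adjusted p (Benjamini-Hochberg, over 9162 genes) below 0.05. In such bulk RNA, fewer cells of a type and less RNA per cell cannot be told apart.

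As background, cultures of neuroblastic tumour lines can hold neuron-like N-type cells, substrate-adherent S-type cells that make matrix proteins, and intermediate I-type cells that can turn into either. SK-N-MC is also known to carry the EWSR1-FLI1 fusion of Ewing-family tumours, a transcription factor that switches on genes such as NKX2-2 and STEAP1 and holds down mesenchymal genes. ATF4 and CHOP are transcription factors that switch on amino acid synthesis, amino acid uptake and tRNA charging when amino acids or protein folding are limiting.

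The markers fitted the labelled line. NKX2-2, a homeobox factor, had 1535, 1616 and 1657 in 4w0 nM, against 1303, 1618 and 816 in 1w0 nM, and STEAP1, CD99, CCND1 and PRKCB were also bright on all 6 arrays. VWF and CDH5 of endothelial cells and LYZ and CD14 of macrophages were near or below the floor of 16 to which low signals were set. Other markers of these cells were measured, such as PECAM1 at 79.9 to 109 in 4w0 nM and 75.0 to 102 in 1w0 nM, and PTPRC, whose values are given below. The summed signal of the 16 fibroblast markers on the array was between 10810 and 11200 in 4w0 nM, against 7439 to 8112 in 1w0 nM. For 14 macrophage and leukocyte markers, 2 of which never rose above the floor, the sum was 1393 to 1508 against 1419 to 1957, and for 11 endothelial markers it was 459 to 495 against 431 to 562. The 12 epithelial markers, 5 of them at the floor on all arrays, summed to 3489 to 3816 in 4w0 nM and 2367 to 2813 in 1w0 nM. The part of other cell types in the differences was not tested. The array median was 98.5 ± 3.1 in 4w0 nM and 92.7 ± 5.0 in 1w0 nM (SD, n = 3), and neither this nor the hybridization controls, the poly-A controls or the 3' to 5' ratios of GAPDH and ACTB differed in an exact two-sided permutation test (p between 0.2 and 1, where 0.1 is the smallest p that 3 arrays against 3 can give).

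The 1w0 nM arrays stood apart from each other, and everything measured against them carries that spread. Across the 9162 genes, which are not independent, pairs of 4w0 nM arrays correlated at r = 0.988 to 0.992 and pairs of 1w0 nM arrays at 0.914 to 0.981, with the lowest value between replicates 2 and 3. The median SD of a gene (log2) was 0.106 in 4w0 nM and 0.254 in 1w0 nM, and 5 genes in 4w0 nM and 241 in 1w0 nM had an SD above 1. In the rotenone groups the median SD was 0.14 to 0.186. Because the test shares 1 spread over all groups, it can understate the spread of 1w0 nM and give p-values that are too small. Replicate 3 of 1w0 nM was at least 4-fold below the mean of the other two in 105 genes and above it in 6. For single 4w0 nM arrays these numbers were 0 to 2 and 0. HSPB8, a small heat shock protein, had 423, 391 and 345 in 4w0 nM, against 363, 598 and 9.24 in 1w0 nM. FN1, the matrix protein fibronectin, had 1548, 1503 and 1556 against 576, 954 and 36.9, and PTPRC, the leukocyte phosphatase CD45, had 451, 432 and 369 against 745, 1061 and 63.6. AIF1, a calcium-binding protein of macrophages, went the other way, with 57.2, 102 and 81.3 in 4w0 nM and 223, 95.9 and 737 in 1w0 nM. HSPB8, PTPRC and AIF1 were chosen after their values were seen.

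The departure of this array followed a difference between 2 groups that share no array with it. Across genes, the log2 distance of 1w0 nM replicate 3 from the mean of replicates 1 and 2 correlated with the difference between 4w50 nM and 4w5 nM at r = 0.713, and with that between 1w50 nM and 1w5 nM at r = 0.51. For that difference at 1 week, single 4w0 nM arrays reached -0.401 to 0.189 and 1w0 nM replicates 1 and 2 had -0.4 and -0.411. These values describe 9162 genes measured on the same array type and have no test. For the difference at 4 weeks, r of replicate 2 against the other two was -0.738, for replicate 1 it was -0.333, and for single 4w0 nM arrays it was between -0.042 and 0.043. The departures of a group's arrays cancel for each gene, so the values of replicates 1 and 2 are tied to that of replicate 3 and are no further observation. Of the 105 genes far below in replicate 3, 103 were also lower with 50 nM than with 5 nM at 4 weeks, 93 of them at least 2-fold, where 48.4% and 3.21% of all genes were so. COL3A1, a fibrillar collagen, had 43.9 in replicate 3, between 51.0 and 188 in 4w50 nM and between 1098 and 1298 in 4w5 nM. Replicate 2 correlated with 4w5 nM arrays at a mean r of 0.964 and with 4w50 nM arrays at 0.919, and replicate 3 at 0.882 and 0.93, while their mean r with the 4w0 nM arrays was 0.964 and 0.935. The labels were kept as given. Whether an array holds RNA of another group than its label says was not tested, and every difference between 4w0 nM and 1w0 nM depends on these labels. Counts of genes are therefore also given without each 1w0 nM array.

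**Figure D1:**
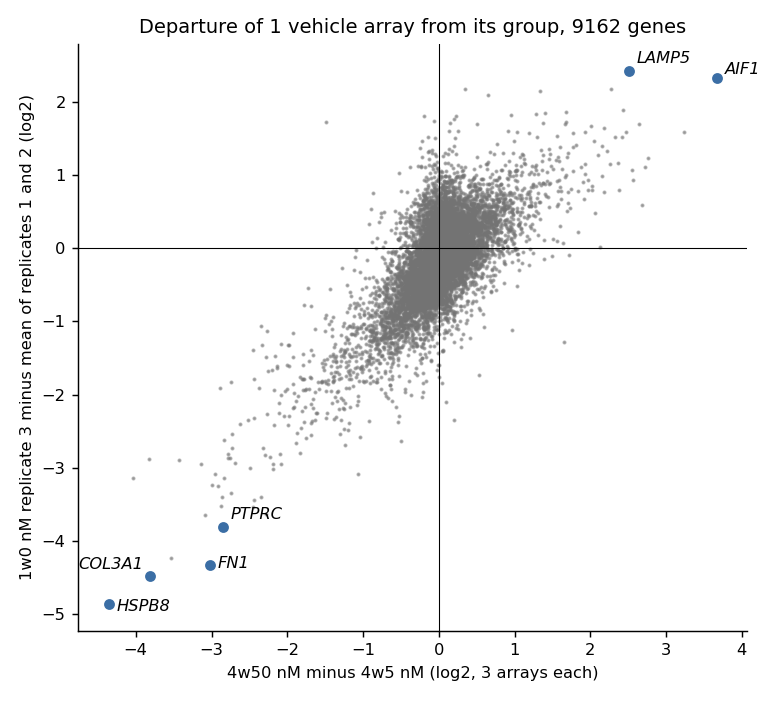
Each point is 1 of 9162 genes, with its difference between 4w50 nM and 4w5 nM (log2, 3 arrays each) on the x axis and the distance of 1w0 nM replicate 3 from the mean of replicates 1 and 2 (log2) on the y axis. The points run along the diagonal (r = 0.713), with HSPB8, COL3A1, FN1 and PTPRC low on both axes and AIF1 and LAMP5 high on both.

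In 4w0 nM cells, 264 genes (2.88% of those tested) rose and 66 (0.72%) fell, together 3.6%, and 80 (0.873%) and 13 (0.142%) of these did so at least 2-fold. The list counts below are to be read beside these shares of 2.88% and 0.72%. Without any 1 of the 4w0 nM arrays, 112 to 125 rose and 20 or 21 fell. NPTX2, TNC and CYTL1 had the highest log2 fold changes and FABP7 the lowest of the genes called. All 6 arrays separated by group for each of the 93 genes, as they did for 14.8% (higher) and 8.51% (lower) of all genes. Where a gene below is said to separate the groups, this describes its values and adds nothing to its call. Over all genes the median log2 fold change was 0.06. Scaling bears on the balance: 220 rose and 148 fell with quantile normalization and 162 and 143 with median scaling, which moved the median of all genes to -0.01 and -0.03. Without 1w0 nM replicate 2 there were 135 and 19 genes of at least 2-fold, and without 1w0 nM replicate 3 there were 105 and 31 (396 rose and 284 fell). Without replicate 1 there were 104 and 15. With only the 6 vehicle arrays in the fit, 39 and 5 genes reached 2-fold and no list below held more than 4 rises or 1 fall. Of the 93 genes, between 89 and 91 still passed without a 1w0 nM array and between 70 and 75 without a 4w0 nM array.

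Among the secreted signals and neuropeptides, 8 of 49 rose and none fell (median log2 fold change 0.23), and 5 rose when any 1 of the 4w0 nM arrays was left out. Without 1w0 nM replicate 3, 2 of them fell. NPTX2, a pentraxin that gathers glutamate receptors at synapses, showed the strongest rise of all genes, with 303, 301 and 286 in 4w0 nM, against 42.8, 6.49 and 15.7 in 1w0 nM. With the 2 1w0 nM arrays below the floor set to it, it was 13.4-fold higher (log2 3.74, SE 0.47, adjusted p = 0.000127). CYTL1, a cytokine-like protein first found in bone marrow cells, had 467, 499 and 487 against 88.4, 34.5 and 95.6, and was 7.30-fold higher. NMU, the neuropeptide neuromedin U, had 154, 146 and 129 in 4w0 nM and 34.5, 26.3 and 26.4 in 1w0 nM, a rise of 4.94-fold. The groups were apart for these 3 genes, as for every gene called at 2-fold. DLK1, a membrane protein of the Notch family that is shed from immature cells, had 411, 366 and 394 in 4w0 nM and 93.3, 40.4 and 90.6 in 1w0 nM, and rose 5.58-fold. TGFB1, a growth factor that drives matrix synthesis, had 1707, 1774 and 1715 against 917, 953 and 535, a log2 fold change of 1.16 (adjusted p = 0.000589). Its 1w0 nM replicate 3 was the lowest, and no 1w0 nM array reached the 4w0 nM range.

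Genes of the matrix and of its remodelling rose where they passed. Of 40 collagens and matrix proteins, 7 rose and none fell (median 0.37), and of 39 remodelling enzymes and inhibitors, 4 rose and none fell (median 0.30). TNC, the matrix protein tenascin C, had 298, 324 and 291 in 4w0 nM, against 68.8, 48.1 and 12.7 in 1w0 nM, 8.09-fold higher with its 1 array below the floor set to it. COL6A3, a chain of collagen VI, had 370, 398 and 392 against 93.2, 40.8 and 86.2 (log2 2.49, SE 0.25, adjusted p = 1.13e-05). COL1A1, the main chain of collagen I, had 1034, 948 and 846 in 4w0 nM and 482, 392 and 551 in 1w0 nM, a log2 fold change of 1.00. For all 3 genes the 1w0 nM arrays lay below every 4w0 nM array, as in 14.8% of all genes. ELN (elastin) and VCAN (the proteoglycan versican) rose by 1.18 and 1.30 on the log2 scale. TIMP1, an inhibitor of matrix metalloproteinases, had 3369, 3516 and 3493 in 4w0 nM, against 1367, 1111 and 1308 in 1w0 nM, and rose 2.75-fold. MMP9, a gelatinase, had 263, 280 and 254 against 138, 124 and 132, and PCOLCE, which speeds the trimming of procollagen, had 519, 431 and 418 against 167, 236 and 183. COL1A2 rose by 0.93 but lost its call without any 1 of the 4w0 nM arrays or 1w0 nM replicate 1 (adjusted p up to 0.0837), and CTSL, a cathepsin, at 0.62 lost it without any 1 array other than 1w0 nM replicate 3 (up to 0.152). FN1 at 2.49 (SE 0.86, adjusted p = 0.125) and COL3A1 at 1.25 (adjusted p = 0.415) did not pass. The count of 7 was 13 without 1w0 nM replicate 2, 10 (with 1 fall) without replicate 3 and 1 with only the 6 vehicle arrays in the fit, and the count of 4 was 8 (with 1 fall) without replicate 3.

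Mesenchymal genes outside the matrix moved the same way where they passed. Of 15 fibroblast markers 5 rose (median 0.61), 3 of which are the collagens COL6A3, COL1A1 and COL1A2, and of 24 genes of smooth muscle and the actin cytoskeleton 5 rose (median 0.36), or 3 without any 1 of the 4w0 nM arrays and 8 without 1w0 nM replicate 2. PDGFRB, the receptor for platelet-derived growth factor of fibroblasts and pericytes, had 117, 133 and 140 in 4w0 nM, against 53, 43.9 and 43.4 in 1w0 nM (log2 1.47, adjusted p = 0.000613). TAGLN and ACTA2, actin-binding transgelin and smooth muscle actin, rose by 1.19 and 0.87. CALD1, the actin-binding caldesmon, had 313, 359 and 317 against 91.6, 80.2 and 203, and lost its call without 4w0 nM replicate 2 (adjusted p = 0.0666). SNAI2, a repressor of epithelial genes that works in neural crest and mesenchyme, had 206, 258 and 244 in 4w0 nM and 65.9, 106 and 31.2 in 1w0 nM, a rise of 3.91-fold. KRT8, a keratin of simple epithelia, rose as well, with 210, 212 and 205 against 71.6, 43.6 and 47.2 (log2 1.98), and was the 1 epithelial marker of 6 to pass. Of 31 integrins and adhesion receptors, 3 rose, all of them tetraspanins (1 without 4w0 nM replicates 1 or 2, 5 without 1w0 nM replicate 2): CD63 by 0.41, CD151 by 0.71 and CD81 by 0.43. CD151 lost its call without 4w0 nM replicates 1 or 2 and CD81 without any 1 array other than 1w0 nM replicate 2 (adjusted p up to 0.119). ITGB2, an integrin chain counted with the leukocyte markers and not in this list, also rose, by 1.66.

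Among the 16 measured S-type markers, 4 rose and none fell, with the highest median of all 37 lists (0.90), and of 15 N-type markers 1 rose (median 0.34). These were 25% and 6.67%, where 2.88% of all genes rose. LGALS1, galectin-1, a sugar-binding protein of adherent and mesenchymal cells, had 679, 728 and 703 in 4w0 nM, against 122, 81.3 and 154 in 1w0 nM, and rose 6.11-fold (log2 2.61, SE 0.17, adjusted p = 7.93e-08). S100B, a calcium-binding protein of glia, had 350, 437 and 445 against 227, 151 and 155 (log2 1.23, adjusted p = 0.00252). The other 2 were TNC and COL1A1. On the log2 scale CAV2 stood at 1.15 (adjusted p = 0.0522), CAV1 at 0.87, S100A11 at 0.94, S100A6 at 0.54, CD44 at 0.36, VIM at 0.26, EGFR at 0.02, YAP1 at -0.30, ANXA1 at -0.55 and MAOA at -0.57, with none past the test and FN1 and COL3A1 as given above. For S100A11 the 1w0 nM arrays spread from 191 in replicate 2 to 835 in replicate 3, around the 644 to 818 of 4w0 nM. For CAV1 they spread from 960 in replicate 3 to 4776 in replicate 2, against 4716 to 4836 in 4w0 nM. The list median of 0.90 lies between S100A11 and CAV1, so its rank carries the spread of single 1w0 nM arrays. The N-type gene that passed was GATA2, a zinc finger factor of neuroblasts, at 0.63, and it lost its call without any 1 array other than 1w0 nM replicate 3 (adjusted p up to 0.17). Without 1w0 nM replicate 3 the N-type markers had 3 rises and the S-type markers 1 fall.

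Neural genes moved in both directions. Of 33 synaptic vesicle and neuronal transport genes 6 rose and 2 fell (median 0.34), and of 23 glial, progenitor and neural crest markers 6 rose and 1 fell (median 0.45), or 3 rose without any 1 of the 4w0 nM arrays, and 1 synaptic gene fell then. SLC18A3, which loads acetylcholine into vesicles, had 144, 173 and 162 in 4w0 nM, against 50.7, 27.8 and 37.7 in 1w0 nM, and rose 4.24-fold. SYT1, the calcium sensor of vesicle release, had 230, 213 and 192 against 102, 67.6 and 84.3 (log2 1.34, adjusted p = 1.49e-05). STMN4, a stathmin that binds tubulin, had 566, 546 and 487 against 315, 107 and 226, a rise of 2.70-fold. None of these 3 genes overlapped between the groups, as was so for every gene called at 2-fold and for 23.3% of all genes. For each of the 3, 1w0 nM replicate 2 was the lowest. HES1, a Notch target that keeps progenitors from differentiating, rose by 1.14, and lost its call without any 1 of the 4w0 nM arrays (adjusted p up to 0.0689). Of 28 WNT and Notch pathway genes 5 rose and 1 fell (median 0.24), but 1 rose and none fell without any 1 of the 4w0 nM arrays. The 5 include HES1, DLK1, the WNT antagonist family member DKK3 at 1.31 (with 1 array of 1w0 nM set to the floor) and WNT5A at 0.88, which both lost their call in the same 3 cases as HES1 (up to 0.0881).

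Genes of the fusion protein's program did not move against each other. Of 31 genes activated by EWSR1-FLI1, 3 rose and none fell (median 0.29): DLK1, the kinase JAK1 at 0.45 and the cyclin CCND1 at 0.68, which lost its call without any 1 of the 4w0 nM arrays or 1w0 nM replicate 3 (adjusted p up to 0.141). Of 21 genes it represses, 6 rose and none fell (median 0.30), and they include TNC, SNAI2, TAGLN and the early response gene IER3 at 1.12, which lost its call without 4w0 nM replicate 2 (adjusted p = 0.0608). Several of these also stand in the matrix and mesenchymal lists. Of the activated genes 6 rose without 1w0 nM replicate 2 and 3 fell without replicate 3, when also 1 repressed gene fell.

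Antigen presentation genes rose together where they passed. Of 15 genes of HLA class I and peptide loading, 6 rose and none fell (median 0.24), also whichever vehicle array was left out, but 2 rose with only the 6 vehicle arrays in the fit. HLA-C had 1975, 2010 and 1968 in 4w0 nM, against 834, 671 and 1122 in 1w0 nM, and rose 2.32-fold (log2 1.21, SE 0.14, adjusted p = 4.20e-05). HLA-B had 2304, 2025 and 1980 against 1016, 609 and 1326, and HLA-F had 1976, 1891 and 2061 against 1284, 810 and 1261. In all 3 the lowest value was that of 1w0 nM replicate 2. HLA genes are near copies of each other, so their probe sets can share signal and the members cannot be counted as separate. TAPBP, tapasin, which holds class I molecules at the peptide transporter, had 682, 685 and 653 in 4w0 nM and 350, 358 and 290 in 1w0 nM (log2 1.02, adjusted p = 0.000397). B2M, the light chain of class I molecules, had 4871, 4744 and 4301 against 4007, 4344 and 4407, and did not pass (log2 0.12, adjusted p = 0.418).

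Of 30 interferon and NF-kappa-B response genes 6 rose and none fell (median 0.24). IFI6, an interferon-induced mitochondrial protein, had 113, 144 and 137 in 4w0 nM, against 35.7, 34.8 and 37.9 in 1w0 nM, and rose 3.63-fold. ISG15, a ubiquitin-like protein, had 258, 286 and 253 against 114, 130 and 164. TNFAIP3, which ends NF-kappa-B signalling, had 160, 157 and 172 against 66.7, 74.7 and 82.2. Each of these separated the groups on all arrays, as 14.8% of all genes did in this direction. GBP2, a guanylate-binding protein, rose by 1.27 (log2). Among 27 immediate early and MAPK feedback genes 5 rose and 1 fell (median 0.31), or 1 to 3 rose without any 1 of the 4w0 nM arrays or 1w0 nM replicate 3, with JUNB, a subunit of AP-1, at 490, 495 and 370 against 235, 193 and 218. KLF10 rose by 0.81 and lost its call without any 1 of the 4w0 nM arrays or 1w0 nM replicate 3 (adjusted p up to 0.114).

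Of 21 genes of fatty acid synthesis and lipid droplets, G0S2 and ELOVL6 rose and FABP7 fell (median 0.23). G0S2, an inhibitor of fat breakdown at lipid droplets, had 274, 292 and 301 in 4w0 nM, against 37.1, 38.4 and 62.6 in 1w0 nM, and rose 6.46-fold (log2 2.69, adjusted p = 1.37e-07). Among other large rises, SMPD1, the lysosomal enzyme that splits sphingomyelin, had 1202, 1207 and 1231 against 375, 493 and 151, a rise of 4.00-fold. Dimmer probe sets of SMPD1 gave log2 differences of 2.16 and 0.57, and 1 more was below the floor in both groups. ELOVL6, which lengthens fatty acids, had 70.8, 77.5 and 69.6 against 32.4, 18.2 and 29.9. In these genes every 1w0 nM array was below every 4w0 nM array, as in all 80 genes that rose at least 2-fold. CAMK2N1, an inhibitor of the calcium-dependent kinase CaMKII, had 240, 270 and 258 in 4w0 nM and 46.4, 54.7 and 46.6 in 1w0 nM, and rose 5.21-fold. CRYBA2, a beta-crystallin, and APOBEC3B, a cytidine deaminase, were dim in 1w0 nM, with 2 and 1 arrays below the floor, and were 7.02-fold and 3.82-fold higher with these set to the floor. HMOX1, heme oxygenase 1, the enzyme that breaks down heme and a target of the oxidative stress factor NRF2, had 432, 431 and 431 in 4w0 nM, against 145, 87.2 and 135 in 1w0 nM, a rise of 3.61-fold (log2 1.85, SE 0.22, adjusted p = 4.92e-05). HMOX1 was named after its values were seen.

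**Figure D2:**
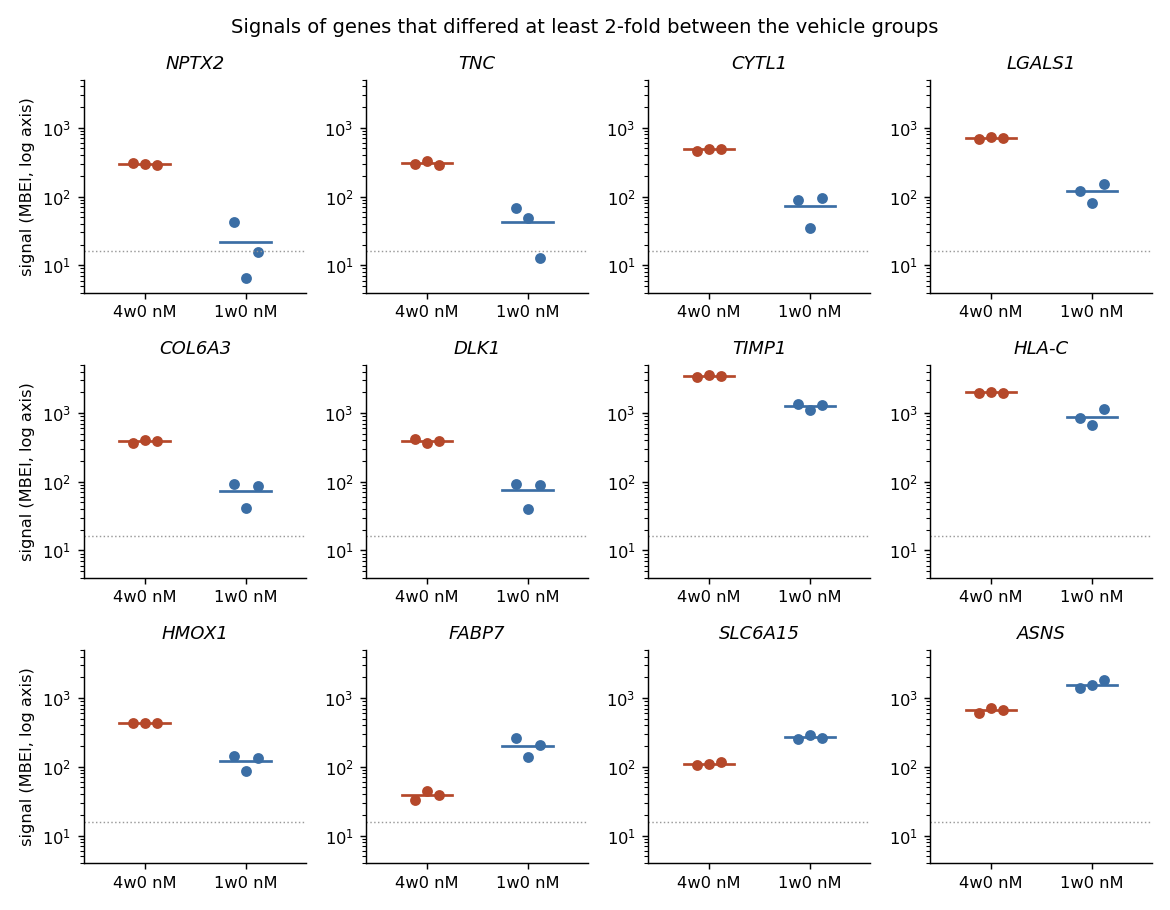
Signals (MBEI, log axis) of 12 genes on the 3 arrays of 4w0 nM (left) and the 3 of 1w0 nM (right), with 1 point an array, a bar at the mean and a dotted line at the floor of 16. The groups do not overlap for any of the 12 genes, as for all 93 genes of at least 2-fold. The 4w0 nM points lie closer together, as for NPTX2 with 286 to 303 against 6.49 to 42.8.

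The 13 genes that fell at least 2-fold hold a fatty acid carrier, neuronal and transporter genes and enzymes of amino acid and one-carbon metabolism. FABP7, a fatty acid-binding protein of radial glia and progenitors, had 32.5, 44.2 and 38.5 in 4w0 nM, against 267, 137 and 205 in 1w0 nM, and fell 5.13-fold (log2 -2.36, SE 0.41, adjusted p = 0.00252). Dimmer probe sets of FABP7 gave log2 differences of -2.44 and 0.04, the latter with means of 35.6 and 34.3. SLC1A3, the glial glutamate transporter, had 96.7, 109 and 95 against 210, 254 and 167, and SLC6A15, a neuronal carrier of branched-chain amino acids and proline, had 106, 109 and 119 against 251, 286 and 263. These last 2 are the members of 22 amino acid transporters that fell, with none higher (median -0.23). Without 1w0 nM replicate 3, 5 transporters fell, and without replicate 2, 2 rose. SERPINI1, neuroserpin, a protease inhibitor released by neurons, had 38.4, 46.0 and 24.7 in 4w0 nM and 96.0, 118 and 77.8 in 1w0 nM. MTHFD2L, a mitochondrial enzyme of one-carbon metabolism, had 32, 47.8 and 43.3 against 86.3, 100 and 69.5. GRB14, an adaptor that inhibits the insulin receptor, had 21.9, 30.3 and 27.4 against 69.2, 66.1 and 84.5. All of these were separate between the groups, as were all 13. EYA4, a transcriptional coactivator with phosphatase activity, fell by 1.15, ADPRM by 1.06 and KIZ, a centrosome protein, by 1.07 on the log2 scale. CSTA, a cystatin that inhibits cathepsins, fell by 1.51, RGS16, which shortens G protein signals, by 1.27 and TPD52L1 by 1.23. RGS16 and TPD52L1 had their highest value on 1w0 nM replicate 3, at 357 and 539. A dimmer probe set of each gave smaller log2 differences, of -0.78 and -0.55. Of the 13, 6 lost the call without at least 1 array: CSTA without any array other than 1w0 nM replicate 3 (adjusted p up to 0.152), RGS16 without any 4w0 nM array or 1w0 nM replicate 3 (0.115), TPD52L1 without any 4w0 nM array (0.108), KIZ without 4w0 nM replicates 2 or 3 (0.0854), SLC6A15 without 4w0 nM replicates 1 or 2 (0.0574) and SERPINI1 without 4w0 nM replicate 3 (0.0713).

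Targets of ATF4 and CHOP fell where they passed. Of 34 measured, 5 fell and none rose, 32 had a log2 fold change below 0 and the median was -0.47, where the median of all genes was 0.06 and 0.72% of them fell. ASNS, which makes asparagine from aspartate, had 610, 713 and 677 in 4w0 nM, against 1380, 1528 and 1813 in 1w0 nM, and fell 2.35-fold (log2 -1.23, SE 0.24, adjusted p = 0.00594). CHAC1, which breaks down glutathione, had 101, 127 and 108 against 242, 268 and 160. ATF3, a stress-induced transcription factor of the same family as ATF4, had 102, 96.0 and 93.4 against 182, 216 and 147. In these 3 genes the lowest 1w0 nM array lay above the highest 4w0 nM array, as in 8.51% of all genes. PSAT1, the aminotransferase of serine synthesis, had 1222, 1213 and 1052 in 4w0 nM and 1881, 2214 and 1754 in 1w0 nM (log2 -0.74, adjusted p = 0.0335), and lost its call without any 1 array other than 1w0 nM replicate 3 (up to 0.146). CEBPG, a partner of ATF4 on DNA and the fifth to fall, stood at -0.66 (adjusted p = 0.0312), and lost its call without any 1 of the 4w0 nM arrays or 1w0 nM replicate 2 (up to 0.132). DDIT3, the gene of CHOP itself, named after its values were seen, had 384, 372 and 346 in 4w0 nM, against 559, 965 and 2198 in 1w0 nM, a log2 difference of -1.53 that did not pass (SE 0.52, adjusted p = 0.123). The count of 5 was 3 without any 1 of the 4w0 nM arrays, 10 without 1w0 nM replicate 3, 6 (with 1 rise) without replicate 2, 9 with quantile normalization, 10 with median scaling and 1 with only the 6 vehicle arrays. Around this group, 0 of 17 aminoacyl-tRNA synthetases passed in limma (median -0.28), where 5 had an unadjusted p below 0.05, all lower, or 3 in the methods' t-test (unpaired, on the same log2 values), 2 of them lower, and 1 of 15 serine, glycine and one-carbon enzymes, PSAT1, fell (median -0.32; 0 to 3 without 1 array, the 3 without 1w0 nM replicate 3).

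The promoters of ASNS, CHAC1 and ATF3 are shown because these are the 3 called targets whose promoter holds the element TGATGNAA, to which ATF4 and C/EBP partners bind. They run from 250 bases before to 50 after the start given by RefSeq on GRCh38.p14, at chr7:97872359-97872658 (minus strand) for ASNS, chr15:40953221-40953520 (plus strand) for CHAC1 and chr1:212565157-212565456 (plus strand) for ATF3. Capitals mark the match, which is on the reverse strand for CHAC1 and begins 68, 209 and 191 bases before the start.
ASNS: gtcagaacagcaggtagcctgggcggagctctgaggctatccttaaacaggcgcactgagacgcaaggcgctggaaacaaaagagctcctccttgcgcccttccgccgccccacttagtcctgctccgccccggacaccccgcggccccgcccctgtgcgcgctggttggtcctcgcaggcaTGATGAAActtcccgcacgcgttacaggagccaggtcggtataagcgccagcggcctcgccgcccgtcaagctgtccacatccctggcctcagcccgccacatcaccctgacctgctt
CHAC1: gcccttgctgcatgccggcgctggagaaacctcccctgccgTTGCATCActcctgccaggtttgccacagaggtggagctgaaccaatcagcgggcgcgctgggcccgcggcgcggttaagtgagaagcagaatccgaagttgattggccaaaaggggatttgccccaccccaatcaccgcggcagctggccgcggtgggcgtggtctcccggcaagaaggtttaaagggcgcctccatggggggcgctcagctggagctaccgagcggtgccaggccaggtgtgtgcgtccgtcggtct
ATF3: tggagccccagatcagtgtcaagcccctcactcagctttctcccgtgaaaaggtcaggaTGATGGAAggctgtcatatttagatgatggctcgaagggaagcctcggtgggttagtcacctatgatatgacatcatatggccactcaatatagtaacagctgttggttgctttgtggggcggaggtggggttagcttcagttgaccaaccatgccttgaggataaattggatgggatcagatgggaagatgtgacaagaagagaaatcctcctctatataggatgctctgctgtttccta
Of the 34 targets measured, 28 had a promoter in the table, and 6 of these (21.4%) held the element on either strand, against 1.82% of the 7482 promoters of tested genes and 3.67% of all 27305 promoters of this length. Of the 5 that fell, 3 held it. Among all genes that passed with a promoter in the table, 5 of 53 that fell (9.43%) and 6 of 200 that rose (3%) held it. The 5 include the 3 targets shown. The target list was written from textbook knowledge of ATF4, so its share of promoters with the element is no result of these arrays. A match of letters is a description and not a bound site.

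**Figure D3:**
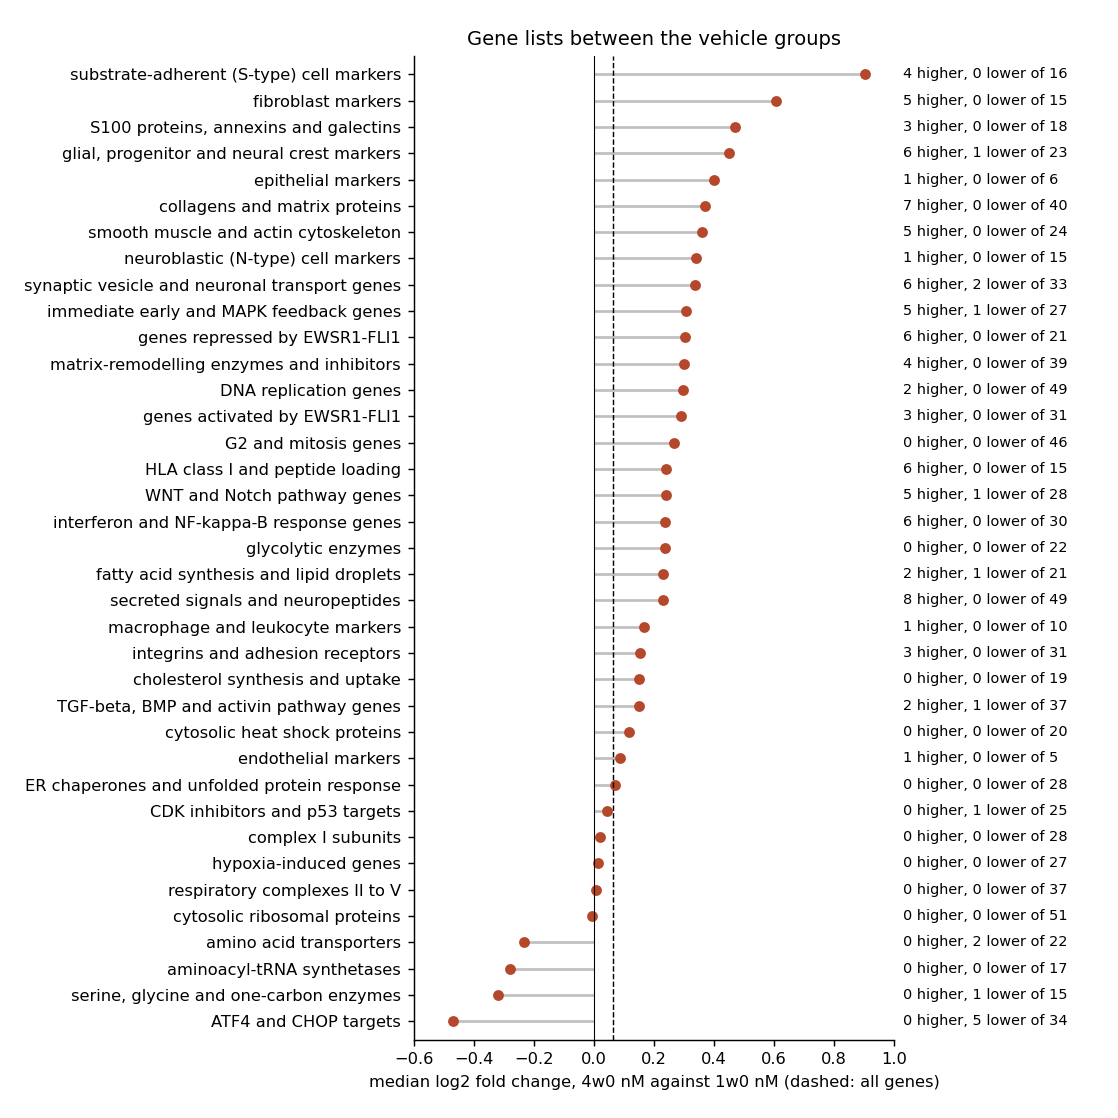
Median log2 fold change between 4w0 nM and 1w0 nM (x axis) of the measured genes of 37 lists (y axis), with the number of members that passed the test in each direction at the right and a dashed line at the median of all genes (0.06). S-type markers have the highest median (0.90) and targets of ATF4 and CHOP the lowest (-0.47). The S-type median lies between S100A11 and CAV1, which spread widely over the 1w0 nM arrays.

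Of 49 DNA replication genes 2 rose (4.08%, where 2.88% of all genes did; median 0.30; 5 without 1w0 nM replicate 1), CCNE1, the cyclin of S phase entry, at 0.87 and ORC6, a subunit of the origin recognition complex, at 0.51, and they lost the call without 4w0 nM replicates 1 or 2, ORC6 also without 4w0 nM replicate 3 or 1w0 nM replicate 2 (adjusted p up to 0.15). None of 46 genes of G2 and mitosis passed in limma (median 0.27; 10 at an unadjusted p below 0.05, all higher, and 1 in the methods' t-test), but 3 rose without 1w0 nM replicate 1. The summed signal of the mitosis genes was 39570 to 41070 in 4w0 nM, against 43120, 38520 and 26050 in 1w0 nM replicates 1, 2 and 3. CDKN1B, the cell cycle inhibitor p27, fell, with 141, 169 and 167 in 4w0 nM and 274, 288 and 220 in 1w0 nM (log2 -0.71, adjusted p = 0.0182), and lost its call without any 1 of the 4w0 nM arrays or 1w0 nM replicate 1 (up to 0.106). It was the 1 gene of 25 CDK inhibitors and p53 targets to pass (4%, where 0.72% of all genes fell). No gene passed among 22 glycolytic enzymes (median 0.24), 27 hypoxia-induced genes (0.01), 28 subunits of complex I (0.02), 37 of complexes II to V (0.01), 51 cytosolic ribosomal proteins (-0.01), 20 cytosolic heat shock proteins (0.12), 28 ER chaperones (0.07) or 19 genes of cholesterol synthesis (0.15). At an unadjusted p below 0.05 limma gave 7 higher and 1 lower glycolytic enzymes, 5 lower ribosomal proteins and at most 3 genes of the other lists in either direction, and the methods' t-test at most 4. Leaving out 1 of the 1w0 nM arrays gave 1 or 2 calls in 6 of these lists. GAPDH stood at 0.04 and ACTB at 0.23, neither past the test, and the sign of GAPDH turns with median scaling.

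The groups grown with rotenone show where these genes stood on arrays outside the fold changes of the comparison, again by the labels as given. These arrays did enter its shared spread and the filter on dim genes. The hybridization controls (mean log2) were 8.687 to 9.103 on the 4w5 nM and 4w50 nM arrays, against 9.694 to 10.12 on all other arrays. The part of this technical difference in what follows was not tested. On the 80 genes that rose, the 1w5 nM and 1w50 nM arrays lay with 4w0 nM, at a median log2 distance from its mean of -0.08 and -0.24, and the 4w5 nM and 4w50 nM arrays lay with 1w0 nM, at -1.26 and -1.11 (1w0 nM itself at -1.31). In 77 of the 80 genes all 3 arrays of 1w5 nM exceeded the highest 1w0 nM array, and in 72 all 3 of 1w50 nM did. For 4w5 nM and 4w50 nM this was so in 17 and 28. Of the 13 genes that fell, 12 were below the lowest 1w0 nM array on all 1w5 nM arrays and 13 on all 1w50 nM arrays, against 0 and 0 at 4 weeks. TIMP1, for example, averaged 3048 with 5 nM and 3001 with 50 nM at 1 week, and 776 with 5 nM and 1171 with 50 nM at 4 weeks, beside 3459 in 4w0 nM and 1262 in 1w0 nM. The counts above describe only the chosen genes, whose choice used the same 1w0 nM arrays. No share of all genes is given beside them. HMOX1 was the 1 rising gene nearer to 1w0 nM than to 4w0 nM in both 1-week rotenone groups, at 170 and 147, and it had 82.2 and 178 at 4 weeks, so that its 431 in 4w0 nM exceeded all 5 other group means. Across all genes the 4w0 nM arrays correlated most with 1w5 nM (mean r 0.986) and 1w50 nM (0.975), then with 1w0 nM (0.958), 4w5 nM (0.937) and 4w50 nM (0.923).

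**Figure D4:**
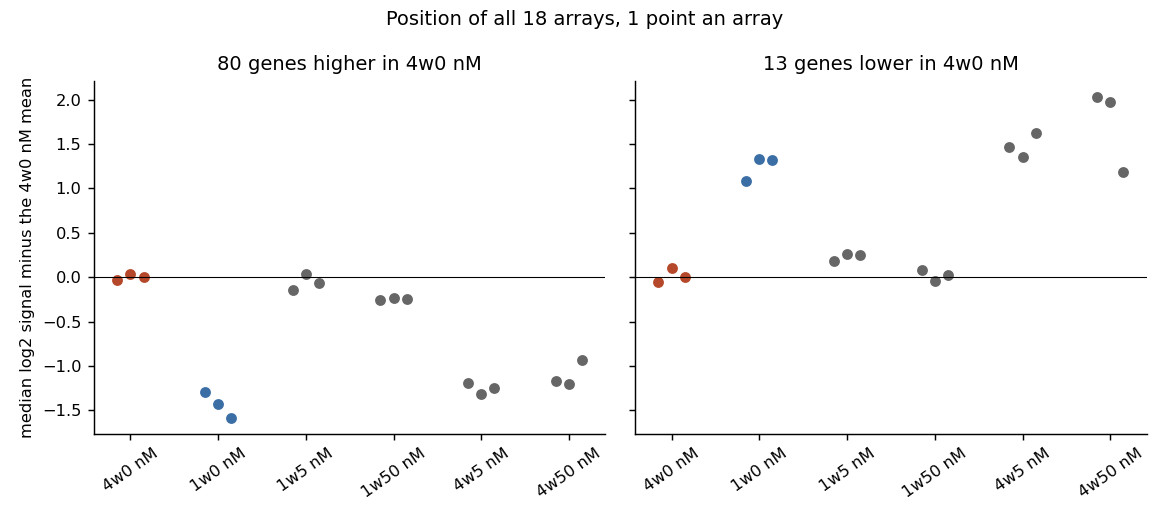
Median log2 signal minus the 4w0 nM mean (y axis) over the 80 genes that rose (left) and the 13 that fell (right), with 1 point for each of the 18 arrays (x axis, by group). The 1w5 nM and 1w50 nM arrays lie near 0 with 4w0 nM (-0.256 to 0.0421 at left), and the 4w5 nM and 4w50 nM arrays lie with 1w0 nM (-1.31 to -0.936 at left).

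The same difference between the times was also fitted at each dose, on the rotenone arrays whose positions are given above. For the chosen genes it restates these positions and is no further check. Between 4w5 nM and 1w5 nM, 3 of the 80 rising genes had the same sign as with vehicle, 0 rose and 67 fell (median log2 -1.25; 17.3% of all genes fell and 20.4% rose). Between 4w50 nM and 1w50 nM, 11 had the same sign, 3 rose and 57 fell (median -0.87; 20.7% and 30.5% of all genes). Of the 13 falling genes, 0 had the same sign at either dose, 10 rose with 5 nM (median 1.13) and 12 with 50 nM (median 1.59). COL6A3 averaged 52.5 in 4w5 nM against 314 in 1w5 nM and 216 in 4w50 nM against 238 in 1w50 nM, and FABP7 averaged 126 in 4w5 nM against 39.0 in 1w5 nM and 323 in 4w50 nM against 38.8 in 1w50 nM. ASNS averaged 1335 in 4w5 nM against 584 in 1w5 nM, and 1622 in 4w50 nM against 446 in 1w50 nM. FABP7 and ASNS rose and COL6A3 fell past the test with 5 nM, and FABP7 and ASNS also with 50 nM, where COL6A3 did not pass (adjusted p = 0.616). A test of whether the time effect differed from that in vehicle cells passed at a size of at least 2-fold in 8.09% of all genes (lower) and 6.87% (higher) with 5 nM, and in 9.9% and 13.7% with 50 nM.

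**Figure D5:**
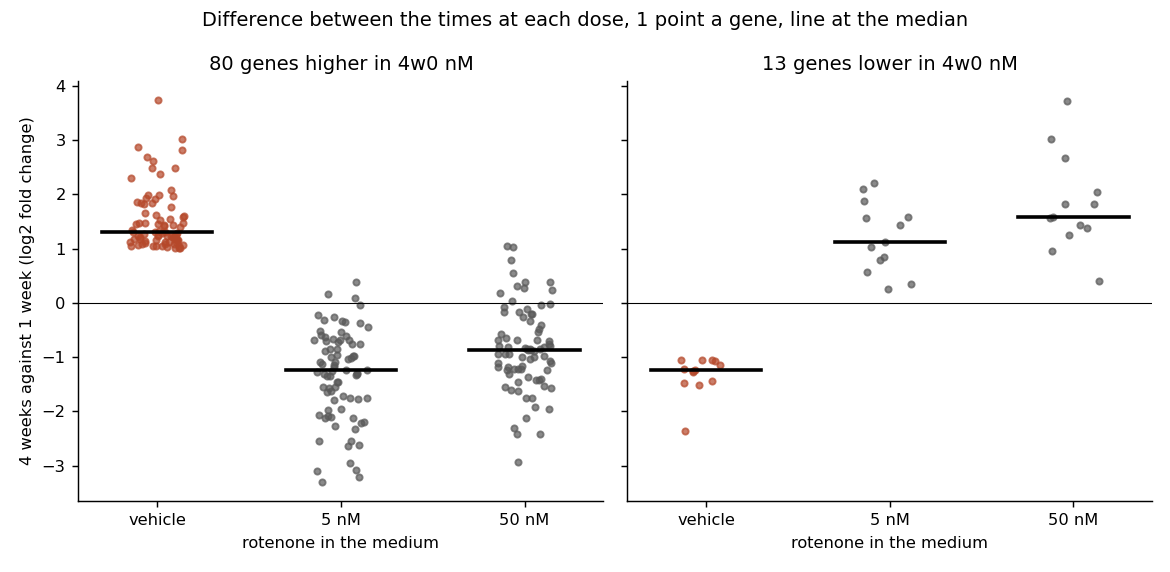
Log2 fold change of 4 weeks against 1 week (y axis) in cells with vehicle, 5 nM or 50 nM rotenone (x axis) for the 80 genes that rose (left) and the 13 that fell (right) with vehicle, with 1 point a gene and a line at the median. The medians at 5 nM and 50 nM are -1.25 and -0.87 at left and 1.13 and 1.59 at right, on the other side of 0 from the vehicle cells by which the genes were chosen.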

How the data were processed

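Total RNA of 18 SK-N-MC cultures was hybridized to HG-U133A arrays. The deposited values are intensity signals: the authors normalized the arrays and computed MBEI in dChip (its version is not given in the sources used here), and the table holds 22283 probe sets with linear signals between 0.46 and 11258.4. All 18 columns were used and no columns of fold changes or p-values are in the table. Signals below 16 were set to 16 and log2 was taken, so folds are between floored log2 means. Array medians differ by 1.17-fold, and no further scaling was applied. Of the probe sets, 68 are controls, 19065 have a single gene in the platform annotation, 1043 have several and 2107 have none. Where several probe sets had the same gene, the one brightest on average stood for it, and 9162 of 11964 genes reached a signal of 50 on 3 or more arrays and were tested.

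All 18 arrays entered 1 model in limma 3.58.1 (R 4.3.3), which had a term for each group, 1 shared spread (12 residual and 5.71 prior degrees of freedom) and an intensity trend, with Benjamini-Hochberg adjustment over all genes. The difference between the times at a dose was compared with that in vehicle cells in the same fit. The study's methods used an unpaired t-test with SAM. The members and the 37 gene lists were chosen with earlier results of these data known. Genes are named if they are among the 15 largest rises or falls of at least 2-fold, among up to 4 called genes of a list, S-type markers, B2M, GAPDH, ACTB or called ATF4 targets whose promoters are shown, and others are named as examples of counts or marked. Array controls were compared by exact permutation of 3 arrays against 3. Alternatives were a floor of 8 or 32, log2(signal + 16), scaling by quantiles or by the median, looser or stricter filters, averaged or separate probe sets, a fit of the 6 vehicle arrays only, no trend, array weights, a replicate block, the methods' t-test and leaving out each array. Figures were drawn with matplotlib 3.10.9 in Python 3.11.15. Promoter sequences are from RefSeq (GRCh38.p14), matched by Entrez gene ID.

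The number of arrays limits the precision. Same-numbered arrays of both times did not deviate together (r across genes -0.112, 0.188 and 0.0763 for numbers 1, 2 and 3), so they were not treated as pairs.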

Additional observations from a re-analysis of the deposited data

Results flagged for a closer look

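The difference between 4 weeks and 1 week in vehicle cells was set against that with rotenone by a test of the difference itself (limma, adjusted p below 0.05). At a size of at least 2-fold they differed in 1370 genes between 5 nM and vehicle (8.09% of genes with a lower and 6.87% with a higher time effect at 5 nM) and in 2163 between 50 nM and vehicle (9.9% and 13.7%). At any size, 2992 of the 9162 genes differed with 5 nM and 4108 with 50 nM. Of the 80 genes at least 2-fold higher in 4w0 nM, 78 differed at any size with 5 nM and 75 with 50 nM. At least 2-fold, these were 78 and 73. Of the 13 lower genes, 13 and 13 differed, also at least 2-fold. The 93 genes were chosen by the vehicle comparison, which is 1 side of the difference, so their counts are a description. The difference in the log2 time effect between 5 nM and vehicle was -6.69 for NPTX2, -5.78 for DLK1, -5.72 for LGALS1, -5.1 for COL6A3, -3.44 for TIMP1 and -2.97 for HLA-C, and 3.81 for FABP7, 3.54 for SERPINI1, 3.47 for SLC6A15 and 2.36 for ASNS. Between 50 nM and vehicle it was -6.68 for NPTX2, -4.92 for LGALS1, -4.43 for DLK1, -2.87 for TIMP1, -2.65 for COL6A3 and -2.06 for HLA-C, and 5.38 for FABP7, 4.98 for SLC6A15, 4.11 for SERPINI1 and 3.07 for ASNS. Both differences share the 6 vehicle arrays, and the spread of the 1w0 nM group enters each. The 4w5 nM and 4w50 nM arrays also had lower hybridization controls than all other arrays, as given above. The counts depend on the group labels as given: on the 93 genes the 1w5 nM and 1w50 nM arrays lay with 4w0 nM and the 4w5 nM and 4w50 nM arrays with 1w0 nM, and an exchange of labels or RNA was not tested.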

How the results depend on the processing

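Of the 77 genes named by the naming rule given with the processing that passed, 26 lost the call without at least 1 array. CEBPG and HMOX1 were named outside this rule. CEBPG also lost its call, and HMOX1 kept it without any 1 vehicle array. The genes that rose and fell numbered 264 and 66, and 80 and 13 at least 2-fold. With quantile normalization 148 fell, and with median scaling 162 rose and 143 fell. With the started log 7 fell at least 2-fold. Taking all probe sets, 415 rose, 144 at least 2-fold, and the time effect differed in 2355 and 3804 probe sets. With only the 6 vehicle arrays in the fit, 41 rose and 5 fell, 39 and 5 at least 2-fold (44 of the 93 genes still passed). With 1 weight per array, an estimate that limma stopped before it converged, 43 fell, 20 at least 2-fold. With 1 weight per group 135 rose and 15 fell. The methods' t-test gave 766 and 469 genes at an unadjusted p below 0.05 and 0 of either direction, and 0 and 0 at least 2-fold, after Benjamini-Hochberg, where limma found 1725 genes at an unadjusted p below 0.05. Leaving out 1 array gave 112 to 396 rises and 20 to 284 falls, 65 to 135 and 8 to 31 at least 2-fold, and 1263 to 1716 and 2094 to 2301 differences from vehicle at 5 nM and 50 nM. With the replicate block, where same-numbered arrays share a term, 230 rose and 55 fell, 79 and 12 at least 2-fold, and the time effect differed in 1356 and 2151 genes. It changed the call of 2 of the 93 genes, and the numbers did not pair the arrays. Among genes that did not pass, EGFR changed sign with quantile normalization (-0.0525), median scaling (-0.0693) and array weights (-0.155), and was between -0.16 and 0.147 with 1 array left out, at -0.117 without 4w0 nM replicate 3. GAPDH changed sign with median scaling (-0.0449), array weights (-0.0286) and without 1w0 nM replicate 3 (-0.0695; highest 0.11). YAP1 was 0.521 without 1w0 nM replicate 2 (lowest -1.08), and COL3A1 was -0.245 without 1w0 nM replicate 3 (highest 2.17). The causes were not tested. With 3 arrays a group and a floor of 16, genes below the floor have no measured level.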

Other observations

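By chromosome, the median log2 fold change between 4w0 nM and 1w0 nM lay between -0.0178 on chromosome 13 and 0.145 on chromosome 19. Genes that fell made up 4.85% of the genes of chromosome 4, the highest share of any chromosome, and genes that rose made up 5.61% on chromosome 21 and 5.6% on chromosome 22. Neighbouring genes are not independent, and these shares have no test.

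Of 37 genes of the TGF-beta, BMP and activin pathway, 2 rose and 1 fell (median 0.15). These were 5.41% and 2.7%, where 2.88% of all genes rose and 0.72% fell. TGFBI, a matrix protein induced by TGF-beta, had 77.6, 74.8 and 70.3 in 4w0 nM, against 36.7, 28.7 and 32.3 in 1w0 nM, and rose 2.29-fold beside TGFB1. SMAD1, which carries BMP signals to the nucleus, fell by 0.53 on the log2 scale and lost its call without any 1 of the 4w0 nM arrays or 1w0 nM replicate 1 (limma adjusted p up to 0.155). Of 18 S100 proteins, annexins and galectins 3 rose (median 0.47), and 5 rose and 1 fell without 1w0 nM replicate 3. LGALS3BP, a secreted partner of galectin-3, stood at 0.76 beside LGALS1 and S100B, and lost its call without 4w0 nM replicates 2 or 3 (adjusted p up to 0.103).

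Leukocyte and endothelial genes gave single calls, 1 of 10 and 1 of 5 (10% and 20%, where 2.88% of all genes rose). ITGB2, the beta chain of leukocyte integrins, had 76.8, 71.2 and 66.9 in 4w0 nM, against 16.5, 37.4 and 18.6 in 1w0 nM, and was the 1 of 10 macrophage and leukocyte markers to rise, while PTPRC and AIF1 were spread over 1w0 nM arrays as given above. CLDN5, a tight junction protein of endothelium, had 50.9, 50.6 and 47.8 against 29.3, 20.6 and 16.3 and lost its call without any 1 of the 4w0 nM arrays (adjusted p up to 0.0726).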
